A study of Mus musculus with 19 samples.

Results

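Oxidative phosphorylation subunit genes of the nuclear genome were followed in mouse cerebellum with and without Gnas, the gene of the G protein subunit Gsα. They were chosen by symbol: genes listed in both deposited tables whose names begin with Ndufa, Ndufb, Ndufc, Ndufs, Ndufv, Uqcr, Cox4 to Cox8 or Atp5, with Sdha, Sdhb, Sdhc and Sdhd added. A level of at least 1 FPKM in at least 3 of 19 libraries was also required. FPKM are sequenced fragments scaled to transcript length and to the size of the library, so they are levels per length. Of 22193 listed genes, 90 had such a name and 88 of these reached the level, which 14591 of all genes reached. By known function, 36 encode subunits of complex I, 4 of complex II, 8 of complex III, 17 of complex IV and 15 of complex V. The other 8 match by name only: the complex I assembly factors Ndufaf1, Ndufaf2, Ndufaf3 and Ndufaf4, the supercomplex factor Cox7a2l, the accessory factors Atp5s and Atp5sl, and Cox4nb, which belongs to a membrane complex of the endoplasmic reticulum. Just inside the threshold, Cox7b2 reached 1 FPKM in 11 libraries, Cox8b in 14 and Uqcrc2 in 18. Just outside it, Cox6a2 reached the level in 2 libraries, at 2.67 FPKM in hGFAP-Gnas 1 and 1.36 FPKM in hGFAP-Gnas 2, and Cox8c was listed at 0 throughout.

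RNA of the cerebellum was sequenced from C57BL/6 mice at postnatal day 60. Olig1-Gnas (n = 8) are conditional knockouts of Gsα made with Olig1Cre, and hGFAP-Gnas (n = 8) are conditional knockouts made with hGFAPCre. Ctrl (n = 3) are wild type, and no Cre or floxed allele is named for them. The Olig1 promoter is active in the oligodendrocyte lineage and some neural progenitors, and the human GFAP promoter in radial glia, astrocytes and their progeny, so each Cre recombines some cells of the tissue and leaves others. By its title the study concerned Gsα as a suppressor of medulloblastomas, cerebellar tumors, with active Sonic hedgehog signalling. The name of the deposited table that holds hGFAP-Gnas includes the word tumor and that of the table holding Olig1-Gnas does not. No sample label gives the tumor content, so tumor content and loss of Gsα in otherwise normal tissue cannot be told apart in either comparison with Ctrl. The series' design text counts the libraries as mice, and the tests set group differences against the spread between these samples.

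The respiratory chain passes electrons from NADH through complex I, or from succinate through complex II, by way of ubiquinone to complex III, cytochrome c and complex IV, which reduces oxygen. Complexes I, III and IV pump protons across the inner mitochondrial membrane, and complex V, the ATP synthase, uses their return to make ATP. Mature cerebellar neurons rely on this pathway for the energy of firing and synaptic transmission, and several subunits of complex IV have alternative genes used in particular tissues.

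Libraries differed in scale, in depth, in cell content and in Y-linked signal. That signal, Ddx3y at 1 FPKM or more, was present in Olig1-Gnas 5 and 8 and in Ctrl 1 and 2. In hGFAP-Gnas every library except hGFAP-Gnas 3 had it. The groups were thus unequal in this signal, Olig1-Gnas and hGFAP-Gnas most of all. FPKM summed to 603067 to 689165 in Olig1-Gnas, 505739 to 659634 in hGFAP-Gnas and 508329 to 525832 in Ctrl libraries. Read totals are unknown; relative to Ctrl 2, Olig1-Gnas 5 to 8, hGFAP-Gnas 1 to 4 and Ctrl 1 were the deeper libraries (0.838 to 1.07) and the rest the shallower ones (0.268 to 0.430). Gnas itself was listed at 0 in 3 of 8 Olig1-Gnas libraries and at 24.0 to 121 FPKM in the other 5, against 651 and 798 FPKM in Ctrl 1 and 2 and 0 in Ctrl 3. In the table of hGFAP-Gnas it was at 0 in 7 of 8 knockout libraries and 40.9 FPKM in the other, against 798 FPKM in Ctrl 2 and 0 in Ctrl 1 and 3. Ctrl 1 was thus at 651 FPKM in the table of Olig1-Gnas and at 0 in that of hGFAP-Gnas, so a listed 0 can be a failed estimate, and Gnas checks the labels only in part. The library hGFAP-Gnas 2 held all 88 members above its group's median, by a median of 0.81 on the log2 scale, and its transcripts under 1000 bases stood 0.28 above the group median while those over 4000 bases stood at -0.36. In hGFAP-Gnas 1 the short transcripts stood at -0.48, and in Ctrl 3 only 5 members lay above the Ctrl median.

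Summed marker levels also moved with the groups. Purkinje markers (Calb1, Pcp2, Car8, Itpr1) summed to 7.47 to 402 FPKM in Olig1-Gnas, 53.5 to 1231 FPKM in hGFAP-Gnas and 1447 to 2450 FPKM in Ctrl; all 4 were lower in Olig1-Gnas and 3 of 4 in hGFAP-Gnas. Granule neuron markers (Gabra6, Cbln3, Slc17a7, Neurod1) summed to 39.3 to 366 FPKM, 113 to 833 FPKM and 985 to 1435 FPKM in the same order of groups. Of these 4, 3 were lower in each knockout, and Neurod1 did not pass. Gabra6, Cbln3 and Slc17a7 averaged 17.9, 26.65 and 11.5 FPKM in Olig1-Gnas and 80.8, 103.7 and 44.95 FPKM in hGFAP-Gnas. In Ctrl they averaged 354, 449.6 and 249.9 FPKM, so the sums with Neurod1 understate their fall. Interneuron markers had 12.6 to 360 FPKM in Olig1-Gnas, 40.6 to 706 FPKM in hGFAP-Gnas and 928.5 to 1295 FPKM in Ctrl, with 3 of 3 lower in each. Dividing progenitor markers (Mki67, Top2a, Mcm6, Atoh1) reached 369.7 to 890.0 FPKM in Olig1-Gnas, 11.2 to 582 FPKM in hGFAP-Gnas and 1.18 to 1.94 FPKM in Ctrl, with 4 of 4 higher in each. Microglia and macrophage markers had 177 to 565 FPKM in Olig1-Gnas, 41.9 to 408 FPKM in hGFAP-Gnas and 25.5 to 33.4 FPKM in Ctrl, again with 4 of 4 higher in each. Oligodendrocyte markers had 9.66 to 159.5 FPKM, 69.5 to 552 FPKM and 558 to 795 FPKM in that order, with 4 of 4 lower in Olig1-Gnas and 1 of 4 in hGFAP-Gnas. Astrocyte and Bergmann glia markers had 115 to 803 FPKM in Olig1-Gnas, 628 to 1532 FPKM in hGFAP-Gnas and 640.2 to 825 FPKM in Ctrl, with Gfap higher in each, Slc1a3 lower in each and Gdf10 lower in Olig1-Gnas. The Purkinje marker Pcp2 was at 0 in Olig1-Gnas 2 and 4, the granule neuron marker Gabra6 in Olig1-Gnas 4, and the oligodendrocyte marker Opalin in Olig1-Gnas 3 and 5. Endothelium, choroid plexus and blood marker sums overlapped between each knockout and Ctrl, choroid plexus over 1.65 to 2340 FPKM in Olig1-Gnas, 0.961 to 879 FPKM in hGFAP-Gnas and 0.405 to 1217 FPKM in Ctrl. Of the 3 endothelium markers, Flt1 alone passed, lower in Olig1-Gnas at 3.79 FPKM on average against 8.76 FPKM in Ctrl (log2 fold -1.02, adjusted p = 0.00973). In bulk tissue, fewer cells of a type and less RNA per cell cannot be told apart, and the part of these cell contents in each result on the member genes was not tested.

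In the Olig1-Gnas cerebellum, oxidative phosphorylation genes were more often lower than higher, and the few that were higher included Atp5g2, a c subunit gene of ATP synthase, and the supercomplex factor Cox7a2l. Of 88 members, 31 (35.2%) were lower than in Ctrl and 5 (5.68%) higher at an adjusted p under 0.05. Among all 14183 genes tested, 23.6% were lower and 36.2% higher. The median member had a log2 fold of -0.18 on the scale of log2(FPKM + 1), against 0.22 for all tested genes, and 23 of 88 folds were positive. In 14 of 88 members every Olig1-Gnas library lay below every Ctrl library, and in 4 every one lay above. Of all 14183 tested genes, 21.5% lay wholly below Ctrl in this way and 32.2% wholly above, so such separation was not more frequent among the members in either direction. The scale of the libraries bears on these counts: upper quartile scaling gave 4 higher and 41 lower, quantile normalization 4 and 54, and an equal FPKM sum 3 and 54. Of all 14183 genes, 3983, 4125 and 4297 were lower under these scalings, smaller shares than among the members. The median of all genes moved to 0.06, 0.06 and -0.03 under these scalings, and relative to it the member median stood at -0.41, -0.52 and -0.43, against -0.39 without scaling. Without Ctrl 1, 13 members were lower, and without Ctrl 2, 12. Of all genes, 2692 of 14017 and 2634 of 14003 were then lower, larger shares than among the members. At an adjusted p under 0.01, 12 members and 2555 of 14183 genes were lower, again a larger share of all genes.

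In the hGFAP-Gnas cerebellum, 8 of 88 members (9.09%) were lower than in Ctrl and 0 higher. Among 14305 genes tested, 12.8% were lower and 26.1% higher. Without adjustment, 16 members had a p under 0.05 and 2 of these were higher. The median member had a log2 fold of -0.26, against 0.19 for all tested genes, and 11 of 88 folds were positive. In 4 members every hGFAP-Gnas library lay below every Ctrl library: Atp5s, Cox4i2, Cox6b2 and Cox7a1. In 0 members every one lay above. Of the 14305 tested genes, 8.56% lay wholly below Ctrl and 15.2% wholly above, so this was not more frequent among the members either. Upper quartile scaling gave 0 higher and 22 lower, quantile normalization 1 and 33, and an equal FPKM sum 0 and 22. Of all 14305 genes, 2312, 2718 and 2299 were lower under these scalings. The share of lower members was thus above that of all genes under each scaling, and below it without scaling. The counts without scaling rest on single libraries: 0 members were lower without Ctrl 1 or without Ctrl 2, 1 without Ctrl 3, 34 without hGFAP-Gnas 2, and 40 without hGFAP-Gnas 1 and 2 together. Of all genes, 1832 were lower with every library, 197 without Ctrl 1, 137 without Ctrl 2 and 426 without Ctrl 3. The loss without a Ctrl library was thus not particular to the members. Without hGFAP-Gnas 2, 2120 of 14218 genes were lower, and without hGFAP-Gnas 1 and 2, 3198 of 14111. The comparisons of Olig1-Gnas and hGFAP-Gnas share the Ctrl libraries, so their folds are given side by side.

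**Figure D1:**
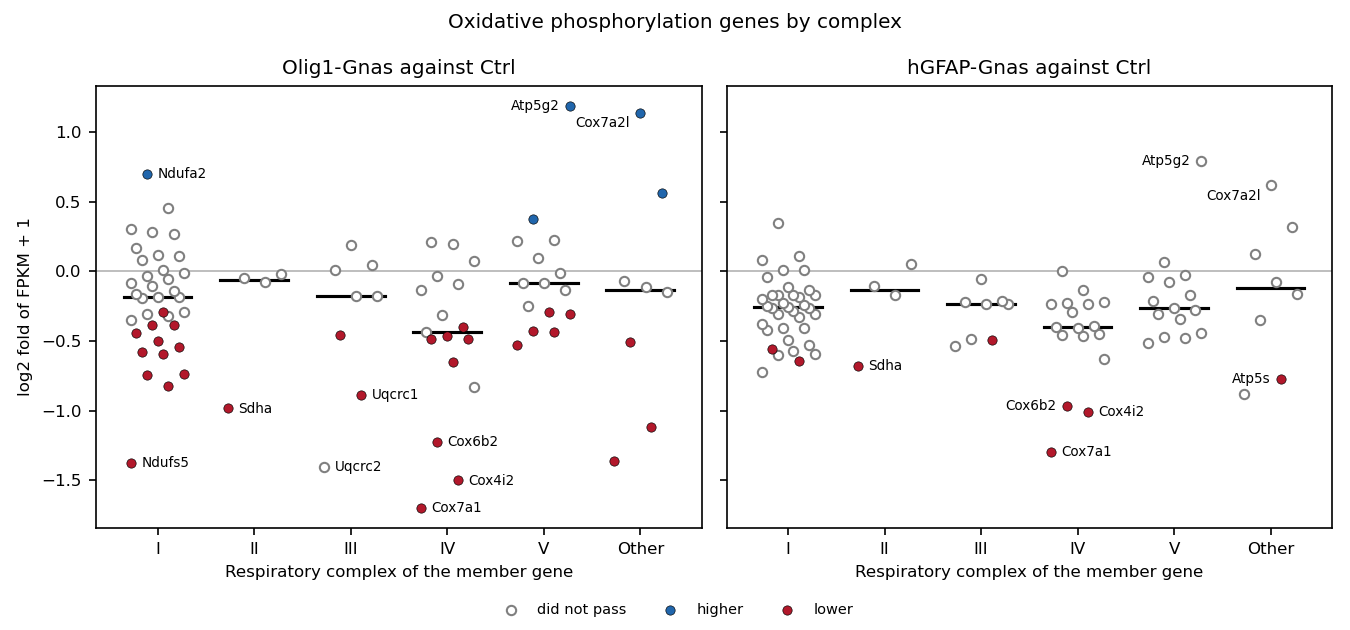
Log2 folds on the scale of log2(FPKM + 1) of all 88 members, by respiratory complex, for Olig1-Gnas against Ctrl (left) and hGFAP-Gnas against Ctrl (right). Each point is a gene, filled where it was higher or lower at an adjusted p under 0.05, and black bars are medians: -0.43 for complex IV and -0.08 for complex V in Olig1-Gnas, -0.40 and -0.26 in hGFAP-Gnas.

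Of the complexes, complex IV had the lowest median fold in both knockouts, at -0.43 in Olig1-Gnas and -0.40 in hGFAP-Gnas. Complex I stood at -0.18 and -0.26, complex II at -0.06 and -0.13, complex III at -0.18 and -0.23 and complex V at -0.08 and -0.26 in the same order. Under each of the 3 scalings all of these medians stayed below 0. The scalings also lowered the median of all tested genes, so the sign alone does not show that the falls hold. Relative to that median, complex IV stood at -0.65 in Olig1-Gnas without scaling. It stood there at -0.67, -0.81 and -0.69 under upper quartile scaling, quantile normalization and an equal FPKM sum. In hGFAP-Gnas it stood at -0.59 without scaling and at -0.60, -0.58 and -0.60 in the same order. By library, the median level of complex I genes on the log2(FPKM + 1) scale was 6.38 to 6.78 in Olig1-Gnas, 6.38 to 7.31 in hGFAP-Gnas and 6.58 to 7.10 in Ctrl. That of complex IV was 6.96 to 7.56 in Olig1-Gnas, 6.83 to 7.96 in hGFAP-Gnas and 7.05 to 7.74 in Ctrl. The groups overlapped in each of these medians. The highest hGFAP-Gnas value in each complex was that of hGFAP-Gnas 2, and the lowest Ctrl value that of Ctrl 3.

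**Figure D2:**
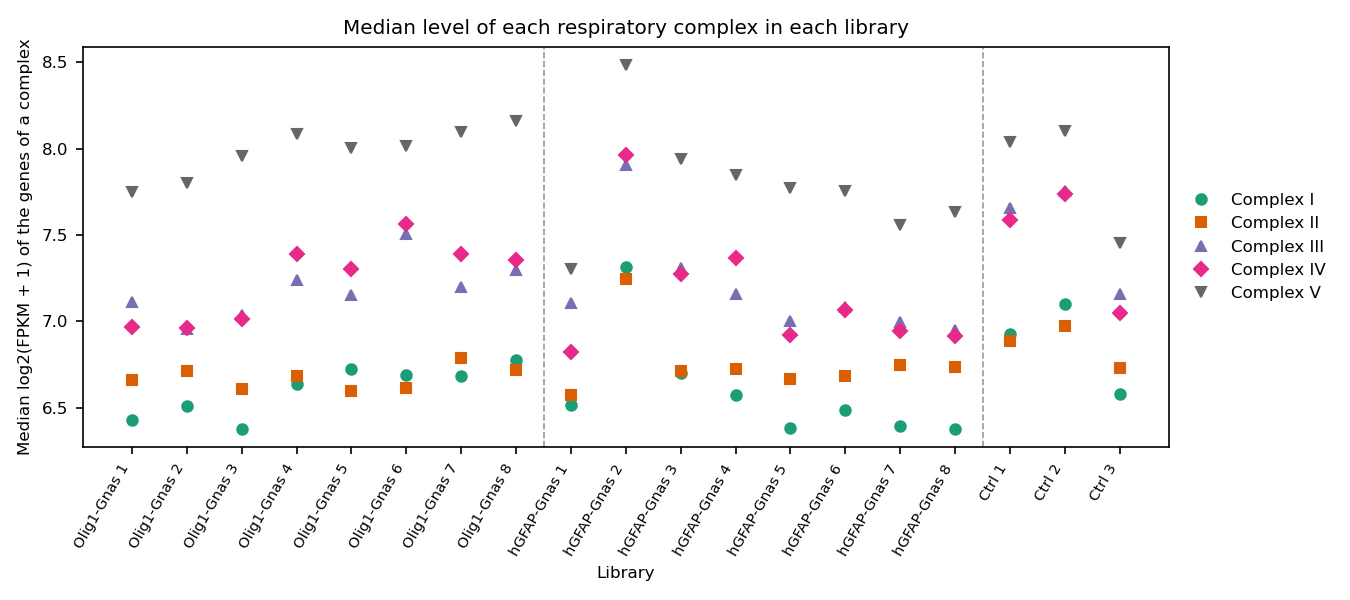
Median log2(FPKM + 1) over the member genes of each respiratory complex (vertical axis) in each of the 19 libraries (horizontal axis), in the order Olig1-Gnas, hGFAP-Gnas, Ctrl, with dashed lines between groups. hGFAP-Gnas 2 stands above its group in each complex, at 7.31 for complex I, and Ctrl 3 lies lowest of the Ctrl libraries, at 6.58 for complex I.

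Complex V, the ATP synthase, has a catalytic head, stalks and a ring of c subunits that turns in the membrane. The c subunit has 3 genes, Atp5g1, Atp5g2 and Atp5g3, which encode the same mature protein behind different mitochondrial targeting sequences. In mm9 coordinates of the deposited tables they lie at chr11:95934106-95937008, chr15:102493298-102501478 and chr2:73746506-73749351. The 250 bases before their transcription starts are shown because the genes share a product and moved in different directions. They are RefSeq sequences of GRCm38.p6, each on the minus strand, written from 5′ to 3′: Atp5g1 from chr11:96075632-96075881, Atp5g2 from chr15:102671048-102671297 and Atp5g3 from chr2:73911327-73911576.
Atp5g1: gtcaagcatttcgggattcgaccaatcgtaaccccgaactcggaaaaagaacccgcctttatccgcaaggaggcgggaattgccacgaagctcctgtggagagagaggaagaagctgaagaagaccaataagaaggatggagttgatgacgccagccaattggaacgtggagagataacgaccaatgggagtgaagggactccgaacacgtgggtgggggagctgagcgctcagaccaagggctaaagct
Atp5g2: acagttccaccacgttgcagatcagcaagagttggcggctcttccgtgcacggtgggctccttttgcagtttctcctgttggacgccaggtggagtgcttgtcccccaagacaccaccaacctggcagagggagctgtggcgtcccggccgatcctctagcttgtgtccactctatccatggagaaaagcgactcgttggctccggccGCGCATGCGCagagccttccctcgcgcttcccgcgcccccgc
Atp5g3: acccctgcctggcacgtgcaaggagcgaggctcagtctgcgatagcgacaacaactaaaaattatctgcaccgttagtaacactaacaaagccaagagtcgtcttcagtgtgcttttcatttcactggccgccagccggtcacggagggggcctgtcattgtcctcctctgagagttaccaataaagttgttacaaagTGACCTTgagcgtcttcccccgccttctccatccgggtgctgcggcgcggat
Capitals mark matches to motifs of factors known to act on respiratory genes, searched on both strands. In Atp5g2 the NRF1 motif CATGCGC and its reverse complement GCGCATG overlap, with the first base 42 bases before the RefSeq start. In Atp5g3 the ERRα motif is present as TGACCTT, the reverse complement of AAGGTCA, with the first base 52 bases before the start. Neither of these, nor the motifs CCGGAAG of GABP and AAGATGG of YY1, was found in the window of Atp5g1. A GENCODE transcript of Atp5g2 starts 80 bases further upstream, inside the sequence shown, and one of Atp5g1 starts 39 bases further upstream.

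Atp5g2 rose in Olig1-Gnas while Atp5g3 and Atp5g1 fell. Atp5g2 had 316 to 561 FPKM in Olig1-Gnas with a median of 345 FPKM, 128 to 358 FPKM in hGFAP-Gnas with a median of 316 FPKM, and 167, 169 and 140 FPKM in Ctrl 1, 2 and 3. Every Olig1-Gnas library lay above every Ctrl library; in hGFAP-Gnas 7 of 8 did, and hGFAP-Gnas 1 lay below all 3. The log2 fold was 1.19 ± 0.17 in Olig1-Gnas (SE, adjusted p = 8.46e-05), with a mean level 2.32 times that of Ctrl. In hGFAP-Gnas it was 0.79 ± 0.31 and did not pass (adjusted p = 0.0578). It passed without hGFAP-Gnas 1, at 0.95 (adjusted p = 0.00158, the lowest over 26 alternatives, the highest being 0.451). Dividing progenitor markers summed to 11.2 FPKM in hGFAP-Gnas 1 and to 205 to 582 FPKM in the other 7 hGFAP-Gnas libraries, and their part in this result was not tested. In Olig1-Gnas the fold of Atp5g2 passed in each of 25 alternatives, from 0.86 to 1.51. It was 0.96 among the deeper libraries alone (adjusted p = 0.00117). The 1.51 came from the shallower libraries alone, where Ctrl 3 was the only Ctrl library.

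Atp5g3 had 305 to 449 FPKM in Olig1-Gnas with a median of 369 FPKM, 278 to 743 FPKM in hGFAP-Gnas with a median of 355 FPKM, and 570.4, 611 and 404 FPKM in Ctrl. Its log2 fold was -0.53 ± 0.16 in Olig1-Gnas (adjusted p = 0.0131), where the groups overlapped at Ctrl 3, and -0.47 ± 0.30 in hGFAP-Gnas (adjusted p = 0.227). Atp5g1, the least abundant of the 3, had 79.7 to 118 FPKM in Olig1-Gnas, 74.1 to 162 FPKM in hGFAP-Gnas and 144, 156 and 100.4 FPKM in Ctrl. It fell in Olig1-Gnas (log2 fold -0.44 ± 0.15, adjusted p = 0.0277) and was at -0.48 ± 0.23 in hGFAP-Gnas (adjusted p = 0.118). Without Ctrl 1 or without Ctrl 2 neither fall passed in Olig1-Gnas, with an adjusted p of 0.0674 and 0.0836 for Atp5g3 and of 0.119 and 0.161 for Atp5g1, the higher of each without Ctrl 2.

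The 3 genes together gave 829 ± 94.6 FPKM in Olig1-Gnas, 781 ± 206 FPKM in hGFAP-Gnas and 821 ± 155 FPKM in Ctrl (SD), sums that differed by less than the spread between libraries. Within that sum Atp5g2 took 44.2 ± 5.90% in Olig1-Gnas, 37.6 ± 10.45% in hGFAP-Gnas and 19.6 ± 1.94% in Ctrl. The share of Atp5g2 ran from 36.6 to 54.2% in Olig1-Gnas, from 19.03 to 50.45% in hGFAP-Gnas and from 18.05 to 21.8% in Ctrl. The lowest hGFAP-Gnas share, in hGFAP-Gnas 1, was the one that lay within the range of Ctrl. Atp5g3 took 44.0, 50.0 and 64.2% of the sum in Olig1-Gnas, hGFAP-Gnas and Ctrl. The log2 ratio of Atp5g2 to Atp5g3 averaged 0.01 ± 0.39 in Olig1-Gnas and -1.72 ± 0.17 in Ctrl, a difference of 1.72. A two-sided exact permutation test gave p = 0.00606, the smallest that 165 arrangements allow, and 0.0182 after adjustment over 9 paralog pairs. In hGFAP-Gnas the ratio averaged -0.45 ± 0.72, a difference of 1.27 from Ctrl that did not pass after adjustment (exact p = 0.0242, adjusted 0.0727). Such a ratio does not depend on how a library was scaled. The c subunit genes are alike over the part that encodes the mature protein, so reads could have been split between them or with pseudogenes.

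**Figure D3:**
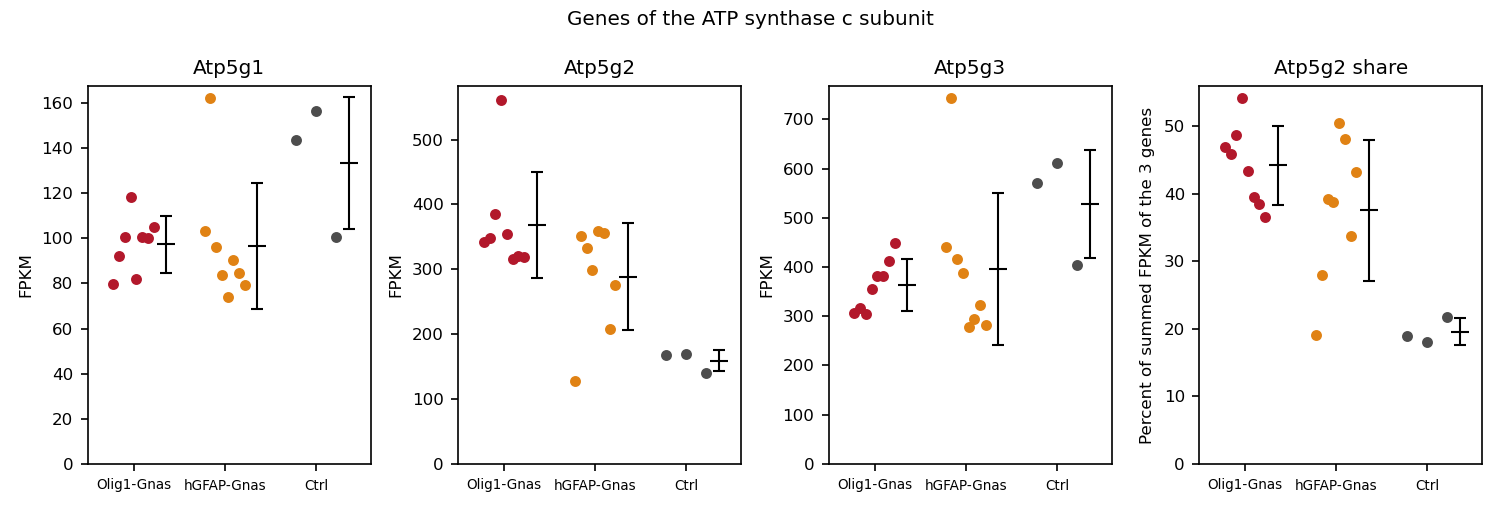
FPKM of Atp5g1, Atp5g2 and Atp5g3, and the percent of their summed FPKM taken by Atp5g2 (vertical axes), by group (horizontal axes); each point is a library and bars are mean ± SD. The Atp5g2 share lies at 36.6 to 54.2% in Olig1-Gnas, 19.03 to 50.45% in hGFAP-Gnas and 18.05 to 21.8% in Ctrl.

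In the catalytic head, Atp5b, the β subunit that forms ATP and the most abundant member in Ctrl, had 576 to 847 FPKM in Olig1-Gnas with a median of 622 FPKM, 497 to 920.5 FPKM in hGFAP-Gnas with a median of 575 FPKM, and 875, 965 and 765 FPKM in Ctrl. Olig1-Gnas 4 was the one Olig1-Gnas library above the lowest Ctrl library. Atp5b fell in Olig1-Gnas (log2 fold -0.43 ± 0.13, adjusted p = 0.0132), and its fold in hGFAP-Gnas was -0.51 ± 0.23 (adjusted p = 0.0879). Without Ctrl 2 the fall did not pass (-0.35, adjusted p = 0.0784). Atp5a1, the α subunit, had 366 to 470.4 FPKM in Olig1-Gnas, 366 to 578 FPKM in hGFAP-Gnas and 499, 544 and 451 FPKM in Ctrl. It fell in Olig1-Gnas (log2 fold -0.29 ± 0.11, adjusted p = 0.0413), with overlap, and was at -0.28 ± 0.20 in hGFAP-Gnas (adjusted p = 0.267). The call was lost without Ctrl 1, without Ctrl 2 and without any 1 of 6 Olig1-Gnas libraries (all but 4 and 6), at an adjusted p of 0.0599 to 0.184. Atp5e, the ε subunit of the central stalk, rose in Olig1-Gnas (0.38 ± 0.14, adjusted p = 0.0386), with 361 to 541 FPKM there and 369, 411 and 281 FPKM in Ctrl. The fold of Atp5e was 0.38 without scaling and turned to -0.12 under quantile normalization (adjusted p = 0.461, against 0.0176 to 0.586 over 25 alternatives). Its call was also lost without Ctrl 1, without Ctrl 3 and without Olig1-Gnas 1, 4, 5, 7 or 8, at an adjusted p of 0.0505 to 0.229. Atp5h, of the peripheral stalk, fell in Olig1-Gnas (-0.31, adjusted p = 0.0411), and is named after its value was seen. The 3 genes of the membrane part, Atp5j2, Atp5k and Atp5l, had folds from -0.08 to 0.22 in Olig1-Gnas and from -0.31 to -0.04 in hGFAP-Gnas, and none passed. In hGFAP-Gnas 0 of 15 complex V genes passed, either way, while among all tested genes 26.1% rose and 12.8% fell there.

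In complex IV, cytochrome c oxidase, 3 of the 5 genes used in particular tissues, Cox4i2, Cox7a1 and Cox6b2, had the lowest folds in both knockouts and fell in both. The shares of all tested genes that fell were 23.6% in Olig1-Gnas and 12.8% in hGFAP-Gnas. Cox4i2, an alternative of Cox4i1 known from lung and induced by low oxygen, lies at chr2:152579908-152590773 in mm9. It had 1.21 to 2.47 FPKM in Olig1-Gnas with a median of 1.46 FPKM, 1.03 to 5.10 FPKM in hGFAP-Gnas with a median of 2.57 FPKM, and 7.14, 6.81 and 5.41 FPKM in Ctrl. All knockout libraries lay below all Ctrl libraries. The log2 fold was -1.50 ± 0.19 in Olig1-Gnas (adjusted p = 3.95e-05) and -1.01 ± 0.29 in hGFAP-Gnas (adjusted p = 0.0227). On the linear scale its mean was 0.256 times that of Ctrl in Olig1-Gnas and 0.444 times in hGFAP-Gnas, since adding 1 FPKM makes the folds of such low genes smaller. Relative to Cox4i1 its log2 ratio differed by -1.47 in Olig1-Gnas (exact p = 0.00606, adjusted 0.0182) and by -0.81 in hGFAP-Gnas (exact p = 0.0242, adjusted 0.0727).

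Cox7a1, the heart and muscle alternative of Cox7a2, had 1.56 to 13.03 FPKM in Olig1-Gnas with a median of 6.37 FPKM, 3.33 to 17.7 FPKM in hGFAP-Gnas with a median of 6.67 FPKM, and 22.01, 19.5 and 19.9 FPKM in Ctrl. No knockout library reached the Ctrl range. Its log2 fold was -1.70 ± 0.55 in Olig1-Gnas (adjusted p = 0.0181) and -1.30 ± 0.37 in hGFAP-Gnas (adjusted p = 0.0207). Without any 1 Ctrl library the Olig1-Gnas fold no longer passed (adjusted p = 0.0502 to 0.0602). Cox6b2, the testis alternative of Cox6b1, had 2.80 to 11.3 FPKM in Olig1-Gnas, 4.24 to 11.4 FPKM in hGFAP-Gnas and 21.7, 13.1 and 12.3 FPKM in Ctrl, again with no overlap. Its log2 folds were -1.22 ± 0.38 (adjusted p = 0.0152) in Olig1-Gnas and -0.97 ± 0.26 (adjusted p = 0.0172) in hGFAP-Gnas. Without Ctrl 1, Cox6b2 did not pass in Olig1-Gnas (-0.98, adjusted p = 0.0896). In hGFAP-Gnas the calls of Cox4i2 and Cox7a1 were lost without any 1 Ctrl library, at an adjusted p of 0.0569 to 0.0882 and 0.0653 to 0.0794, and that of Cox6b2 without Ctrl 1 or Ctrl 2, at 0.0942 and 0.0549. The log2 ratios of Cox7a1 to Cox7a2 and of Cox6b2 to Cox6b1 differed from Ctrl by -2.11 and -1.33 in Olig1-Gnas and by -1.19 and -0.82 in hGFAP-Gnas. None of these passed after adjustment, at an adjusted exact permutation p of 0.0545 for both in Olig1-Gnas and 0.0764 for both in hGFAP-Gnas. Skeletal muscle markers (Acta1, Ckm, Myh4) summed to 5.29 to 15.1 FPKM in Olig1-Gnas, 4.38 to 9.001 FPKM in hGFAP-Gnas and 4.54 to 5.83 FPKM in Ctrl, with Acta1, the tested one, higher in Olig1-Gnas; their part was not tested.

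The other alternatives did not pass. Cox8b, of heart and muscle, had 0 to 5.11 FPKM in Olig1-Gnas, 0.676 to 6.23 FPKM in hGFAP-Gnas and 3.04, 2.37 and 3.17 FPKM in Ctrl, with log2 folds of -0.83 ± 0.41 and -0.29 ± 0.36 in the knockouts. Cox7b2 had 0.369 to 3.59 FPKM in Olig1-Gnas, 0 to 6.39 FPKM in hGFAP-Gnas and 1.65, 2.79 and 1.49 FPKM in Ctrl, with folds of -0.32 and -0.41. Ndufa4l2, induced by low oxygen and the alternative of Ndufa4, had 1.19 to 3.81 FPKM in Olig1-Gnas, 1.42 to 4.56 FPKM in hGFAP-Gnas and 1.76, 3.07 and 2.63 FPKM in Ctrl. These values overlapped throughout.

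Of the 10 nuclear subunits in general use, 5 fell in Olig1-Gnas and 0 passed in hGFAP-Gnas. Among all tested genes, 23.6% fell in Olig1-Gnas and 12.8% in hGFAP-Gnas. Cox4i1, among the largest nuclear subunits and the partner of Cox4i2, had 427 to 668 FPKM in Olig1-Gnas with a median of 583 FPKM, 416 to 1061 FPKM in hGFAP-Gnas with a median of 561 FPKM, and 834, 895 and 624 FPKM in Ctrl. It fell in Olig1-Gnas (log2 fold -0.46 ± 0.15, adjusted p = 0.0217) and was at -0.45 ± 0.29 in hGFAP-Gnas (adjusted p = 0.222). Cox8a, the smallest subunit, had 349 to 653 FPKM in Olig1-Gnas, 398 to 841 FPKM in hGFAP-Gnas and 860.0, 895 and 581 FPKM in Ctrl. Its fold was -0.65 ± 0.20 in Olig1-Gnas (adjusted p = 0.0150) and -0.63 ± 0.27 in hGFAP-Gnas (adjusted p = 0.0839). In both genes Ctrl 3 was the Ctrl library within the range of Olig1-Gnas. Both calls were lost without Ctrl 1 or Ctrl 2, at an adjusted p of 0.0930 and 0.119 for Cox4i1 and of 0.0738 and 0.0819 for Cox8a. Cox7b fell to 67.0 to 101 FPKM in Olig1-Gnas, against 123, 117 and 93.6 FPKM in Ctrl (-0.40 ± 0.15, adjusted p = 0.0376), a call lost without Ctrl 1 or 2 and without Olig1-Gnas 1, 2, 3 or 5 (adjusted p = 0.0560 to 0.160). Cox5b and Cox6a1, the other 2 called and named after their values were seen, had folds of -0.49 and -0.48. Cox5a, at -0.43 ± 0.18, missed the threshold in Olig1-Gnas (adjusted p = 0.0518). Cox6b1, Cox6c, Cox7a2 and Cox7c had folds from -0.09 to 0.19 in Olig1-Gnas and from -0.24 to -0.22 in hGFAP-Gnas. Ndufa4, long counted in complex I and now in complex IV, had 506 to 1074 FPKM in Olig1-Gnas, 409 to 907 FPKM in hGFAP-Gnas and 670.0, 648 and 475 FPKM in Ctrl. Its fold of 0.21 in Olig1-Gnas did not pass, and under quantile normalization it was -0.47 (adjusted p = 0.0442, against 0.0442 to 0.907 over 25 alternatives).

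Cox7a2l, a relative of Cox7a2 known to join complexes III and IV into supercomplexes, rose in Olig1-Gnas. It lies at chr17:83901256-83913673 in mm9. Its level was 205 to 340.0 FPKM in Olig1-Gnas with a median of 236 FPKM, 102 to 229 FPKM in hGFAP-Gnas with a median of 176 FPKM, and 108, 117 and 103 FPKM in Ctrl. Every Olig1-Gnas library lay above every Ctrl library, as did 7 of 8 hGFAP-Gnas libraries, the exception being hGFAP-Gnas 1. The log2 fold was 1.14 ± 0.14 in Olig1-Gnas (adjusted p = 2.77e-05) and 0.62 ± 0.23 in hGFAP-Gnas, where it did not pass (adjusted p = 0.0518) though it did without hGFAP-Gnas 1 (0.72, adjusted p = 0.00376, against 0.00308 to 0.413 over 26 alternatives). Cox7a2 itself had 162 to 253 FPKM in Olig1-Gnas, 112 to 249 FPKM in hGFAP-Gnas and 191, 212 and 131 FPKM in Ctrl, and neither of its folds, 0.19 and -0.22, passed. The log2 ratio of Cox7a2l to Cox7a2 averaged 0.27 ± 0.21 in Olig1-Gnas, 0.17 ± 0.22 in hGFAP-Gnas and -0.68 ± 0.28 in Ctrl. The difference was 0.95 for Olig1-Gnas (exact p = 0.00606, adjusted 0.0182) and 0.85 for hGFAP-Gnas (exact p = 0.00606, adjusted 0.0545). All 16 knockout libraries had a higher ratio than all 3 Ctrl libraries. Within depth, the Olig1-Gnas fold of Cox7a2l was 1.13 in the deeper libraries (adjusted p = 0.00752). It was 1.19 in the shallower ones, where Ctrl 3 was the only Ctrl library.

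**Figure D4:**
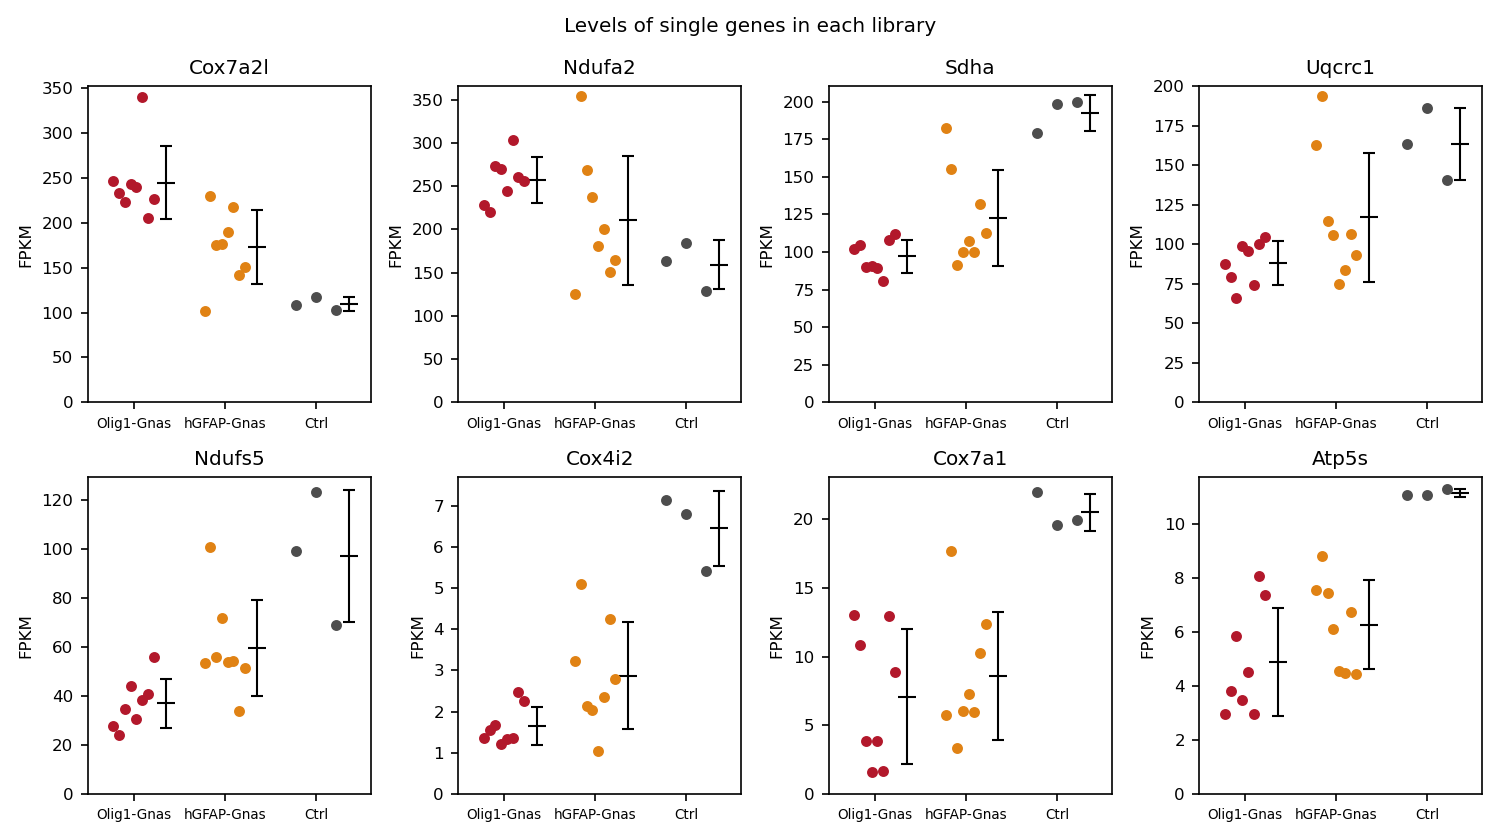
FPKM of 8 members (vertical axes) by group (horizontal axes), with a point for each library and bars for mean ± SD. In Olig1-Gnas, Cox7a2l (205 to 340.0 FPKM) and Ndufa2 (221 to 304 FPKM) lie above Ctrl (103 to 117 FPKM and 129 to 185 FPKM), and Sdha, Uqcrc1, Ndufs5, Cox4i2, Cox7a1 and Atp5s lie below it.

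In complex I, 5 of 7 core genes, whose products carry electrons from NADH, fell in Olig1-Gnas, as did 7 of 29 accessory genes (24.1%), and 1 accessory gene rose. Among all tested genes 23.6% fell and 36.2% rose there, so the falls of accessory genes were near the share of all genes. The difference between the core and accessory shares was not tested. Ndufs1, which holds several of the iron-sulfur clusters, had 40.6 to 61.3 FPKM in Olig1-Gnas with a median of 47.7 FPKM, 45.9 to 77.5 FPKM in hGFAP-Gnas with a median of 49.9 FPKM, and 82.9, 79.4 and 75.4 FPKM in Ctrl. No Olig1-Gnas library reached the Ctrl range, and hGFAP-Gnas 1 alone did among hGFAP-Gnas. Ndufs1 fell in both, with log2 folds of -0.73 ± 0.13 in Olig1-Gnas (adjusted p = 0.000474) and -0.56 ± 0.17 in hGFAP-Gnas (adjusted p = 0.0286). The hGFAP-Gnas call was lost without any 1 Ctrl library and without hGFAP-Gnas 4 or 6, at an adjusted p of 0.0502 to 0.103. Ndufv1, the subunit that takes electrons from NADH, had 79.8 to 115 FPKM in Olig1-Gnas, 78.2 to 151 FPKM in hGFAP-Gnas and 122.5, 142 and 112 FPKM in Ctrl. It fell in Olig1-Gnas (-0.50 ± 0.13, adjusted p = 0.00475) and did not pass in hGFAP-Gnas (-0.42 ± 0.21, adjusted p = 0.119). Ndufs7 (-0.74) and Ndufs3 (-0.44), named after their values were seen, were also among the core genes called in Olig1-Gnas. Ndufs8 and Ndufv2, which did not pass, had folds of 0.01 and -0.04 there.

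Among accessory subunits Ndufs5 had the lowest fold. This small protein of the membrane arm, at chr4:123389952-123395429 in mm9, had 24.2 to 55.8 FPKM in Olig1-Gnas with a median of 36.6 FPKM, 33.8 to 101 FPKM in hGFAP-Gnas with a median of 54.2 FPKM, and 99.3, 123 and 69.2 FPKM in Ctrl. The Olig1-Gnas libraries all lay below Ctrl, and the hGFAP-Gnas libraries overlapped with it at hGFAP-Gnas 2 and 4. Its log2 fold was -1.37 ± 0.24 in Olig1-Gnas (adjusted p = 0.000412) and -0.72 ± 0.28 in hGFAP-Gnas (adjusted p = 0.0580). Ndufv3, of the NADH-binding part, had 77.0 to 173 FPKM in Olig1-Gnas, 102 to 233 FPKM in hGFAP-Gnas and 212, 230.5 and 182 FPKM in Ctrl. It fell in both, at -0.82 ± 0.22 in Olig1-Gnas (adjusted p = 0.00748) and -0.64 ± 0.24 in hGFAP-Gnas (adjusted p = 0.0493), a call lost without any 1 Ctrl library and without any 1 of hGFAP-Gnas 3 to 8 (adjusted p = 0.0609 to 0.164). The other 5 lower in Olig1-Gnas, named after their values were seen, were Ndufb10 (-0.59), Ndufa6 (-0.58), Ndufa13 (-0.54), Ndufa8 (-0.39) and Ndufa10 (-0.39).

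Ndufa2 was the one complex I gene that rose. It had 221 to 304 FPKM in Olig1-Gnas with a median of 258 FPKM, 125 to 354 FPKM in hGFAP-Gnas with a median of 191 FPKM, and 163.5, 185 and 129 FPKM in Ctrl. Olig1-Gnas lay wholly above Ctrl, with a log2 fold of 0.70 ± 0.13 (adjusted p = 0.000686), and hGFAP-Gnas overlapped with it (0.35 ± 0.29, adjusted p = 0.353). The remaining 21 accessory genes had folds in Olig1-Gnas that did not pass, the highest at 0.46 for Ndufa7. In hGFAP-Gnas 2 of 36 complex I genes (5.56%) were lower, Ndufs1 and Ndufv3, against 12.8% of all tested genes.

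Complex II, which oxidizes succinate in the tricarboxylic acid cycle and feeds ubiquinone, has 4 genes, and Sdha alone changed. Sdha encodes the flavoprotein that holds the succinate site and lies at chr13:74459702-74487688 in mm9. It had 80.5 to 112 FPKM in Olig1-Gnas with a median of 96.5 FPKM, 91.2 to 182 FPKM in hGFAP-Gnas with a median of 110.0 FPKM, and 179, 198.5 and 199.9 FPKM in Ctrl. Olig1-Gnas lay wholly below Ctrl, and hGFAP-Gnas 1 alone reached it. The log2 fold was -0.98 ± 0.12 in Olig1-Gnas (adjusted p = 2.44e-05) and -0.68 ± 0.22 in hGFAP-Gnas (adjusted p = 0.0308). In Olig1-Gnas the fold passed in each of 25 alternatives, from -1.27 to -0.95. In hGFAP-Gnas 10 of 26 ended the call, among them the deeper libraries alone (-0.57, adjusted p = 0.369). The shallower ones alone, with Ctrl 3 as the only Ctrl library, gave a fold of -0.82. The hGFAP-Gnas call was also lost without any 1 Ctrl library and without hGFAP-Gnas 4, 5, 6 or 8, at an adjusted p of 0.0527 to 0.102. Its partner in the catalytic part, the iron-sulfur protein gene Sdhb, had 111 to 149.9 FPKM in Olig1-Gnas, 103 to 177 FPKM in hGFAP-Gnas and 133.5, 142 and 113 FPKM in Ctrl. Sdhb had folds of -0.08 ± 0.12 in Olig1-Gnas and -0.17 ± 0.18 in hGFAP-Gnas. The membrane anchors Sdhc and Sdhd had folds of -0.05 and -0.02 in Olig1-Gnas and 0.06 and -0.10 in hGFAP-Gnas, and none of these 3 genes passed.

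In complex III, which passes electrons from ubiquinol to cytochrome c, the core proteins Uqcrc1 and Uqcrc2 had the lowest folds. Uqcrc1 had 65.8 to 104 FPKM in Olig1-Gnas with a median of 91.7 FPKM, 74.6 to 194 FPKM in hGFAP-Gnas with a median of 106 FPKM, and 163, 186 and 141 FPKM in Ctrl. It fell in Olig1-Gnas without overlap (log2 fold -0.89 ± 0.15, adjusted p = 0.000407) and did not pass in hGFAP-Gnas (-0.54 ± 0.27, adjusted p = 0.133), where hGFAP-Gnas 1 and 2 reached the Ctrl range. Uqcrc2 was listed at 0 in Olig1-Gnas 2 and at 97.2 to 118 FPKM in the other 7 Olig1-Gnas libraries. In hGFAP-Gnas it had 96.2 to 153 FPKM, and in Ctrl 167, 168 and 144 FPKM. With the 0 as listed its Olig1-Gnas fold was -1.41 ± 1.37 and did not pass (adjusted p = 0.398). With zeros taken as missing it was -0.56 (adjusted p = 0.00112), and without Olig1-Gnas 2 it was also -0.56 (adjusted p = 0.00112). In hGFAP-Gnas Uqcrc2 fell, with a log2 fold of -0.49 ± 0.17 (adjusted p = 0.0385), a call lost without any 1 Ctrl library and without any 1 of hGFAP-Gnas 3 to 8 (adjusted p = 0.0521 to 0.132). Uqcrfs1, the Rieske iron-sulfur protein, had 83.3 to 152 FPKM in Olig1-Gnas, 85.1 to 158 FPKM in hGFAP-Gnas and 123.5, 131 and 92.2 FPKM in Ctrl, with folds of -0.18 and -0.21 that did not pass. Of the 5 accessory genes Uqcrb fell in Olig1-Gnas (-0.46), named after its value was seen, and the other 4 had folds from -0.18 to 0.19 there.

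Among the members that match by name only, Atp5s, known in cattle as coupling factor B, had 2.96 to 8.06 FPKM in Olig1-Gnas with a median of 4.16 FPKM, 4.45 to 8.82 FPKM in hGFAP-Gnas with a median of 6.42 FPKM, and 11.1, 11.1 and 11.3 FPKM in Ctrl. All knockout libraries lay below all Ctrl libraries, with a log2 fold of -1.12 ± 0.27 in Olig1-Gnas (adjusted p = 0.00406) and -0.77 ± 0.21 in hGFAP-Gnas (adjusted p = 0.0177). The hGFAP-Gnas call was lost without any 1 Ctrl library (adjusted p = 0.0630 to 0.0680). The related Atp5sl had 4.18 to 12.0 FPKM in Olig1-Gnas, 7.23 to 26.8 FPKM in hGFAP-Gnas and 23.5, 24.1 and 21.8 FPKM in Ctrl. It fell in Olig1-Gnas (-1.36 ± 0.24, adjusted p = 0.000457) and was at -0.88 ± 0.33 in hGFAP-Gnas (adjusted p = 0.0553), where hGFAP-Gnas 1 lay above Ctrl. Ndufaf2, which assists in building complex I, had 27.8 to 41.0 FPKM in Olig1-Gnas, 13.9 to 45.8 FPKM in hGFAP-Gnas and 26.7, 26.3 and 21.0 FPKM in Ctrl. It rose in Olig1-Gnas (0.56 ± 0.14, adjusted p = 0.00387) and not in hGFAP-Gnas (0.32 ± 0.28, adjusted p = 0.367). Ndufaf3 fell in Olig1-Gnas (-0.51), named after its value was seen; Ndufaf1, Ndufaf4 and Cox4nb did not pass.

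Between the knockouts, Olig1-Gnas against hGFAP-Gnas, 0 of 88 members passed in either direction by limma, and 7 had an unadjusted p under 0.05. Among 14386 genes tested, 0.146% were higher and 0.264% lower in Olig1-Gnas. The median member fold was 0.08, against 0.01 for all genes, and the groups overlapped in all 88 members. Of the 14386 tested genes, 0.306% lay wholly above hGFAP-Gnas in Olig1-Gnas and 0.292% wholly below. The lowest adjusted p among members, looked up after the values were seen, were those of Ndufs5 (log2 fold -0.65, adjusted p = 0.127), Cox7a2l (0.52, adjusted p = 0.129) and Cox7a2 (0.42, adjusted p = 0.164). Of the 9 paralog ratios, that of Cox4i2 to Cox4i1 had the lowest p: it differed by -0.66 (two-sided exact permutation p = 0.0129, adjusted 0.116). The test of this difference therefore does not show the knockouts to differ in any member, although more members passed against Ctrl in Olig1-Gnas than in hGFAP-Gnas.

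Genes that build or feed the respiratory chain moved in more than one direction. Their counts stand against all tested genes, of which 36.2% rose and 23.6% fell in Olig1-Gnas and 26.1% rose and 12.8% fell in hGFAP-Gnas, and a count near those shares says nothing about the list. In Olig1-Gnas, of 76 tested genes of the mitochondrial ribosome, which translates the subunits encoded by mitochondrial DNA, 44 rose and 0 fell, with a median fold of 0.51. The counts were 29 and 2 under upper quartile scaling, 30 and 2 under quantile normalization, 20 and 3 with an equal FPKM sum, and 26 and 2 without Ctrl 3. Of all 14183 genes, 4315, 4231 and 3822 rose under these scalings, and 4402 of 13979 without Ctrl 3. With an equal FPKM sum and without Ctrl 3, the share of the list that rose was thus near that of all genes. Mrpl52 had 189 ± 22.2 FPKM in Olig1-Gnas and 59.9 ± 11.2 FPKM in Ctrl (log2 fold 1.65 ± 0.14), and Mrps33, Mrpl33 and Mrpl13 rose by 1.26, 1.16 and 1.15. In hGFAP-Gnas 4 of these 76 genes rose and 0 fell, with a median of 0.30; both counts were below the shares of 26.1% and 12.8% among all genes. Mrpl13 was the gene among these 4 with the largest fold, with 74.4 ± 22.2 FPKM in hGFAP-Gnas and 38.7 ± 3.50 FPKM in Ctrl (0.86 ± 0.29). The count there was 0 without any 1 Ctrl library, and 852, 681 and 1498 of all genes rose without Ctrl 1, 2 and 3. It was 31 higher and 2 lower without hGFAP-Gnas 1 and 2. Of all 14111 genes then tested 5787 rose, a share near that of the list. Mrps35, Mrps18b and Mrps30 were the other 3 of the 4 genes that rose with all libraries.

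Of 17 genes that control mitochondrial transcription and DNA, 10 rose and 4 fell in Olig1-Gnas, and 7 rose and 3 fell in hGFAP-Gnas. Among all genes 36.2% rose and 23.6% fell in Olig1-Gnas, and 26.1% and 12.8% in hGFAP-Gnas, so the falls of this list were near the share of all genes in Olig1-Gnas. Ppargc1b, a coactivator of respiratory genes, fell to 0.703 ± 0.773 FPKM in Olig1-Gnas and 2.19 ± 2.66 FPKM in hGFAP-Gnas, against 11.4 ± 2.09 FPKM in Ctrl (log2 folds -2.95 ± 0.32 and -2.27 ± 0.53). Its relative Ppargc1a had 2.11 ± 1.43 FPKM in Olig1-Gnas, 5.49 ± 5.37 FPKM in hGFAP-Gnas and 14.1 ± 1.58 FPKM in Ctrl (-2.43 ± 0.41 and -1.53 ± 0.52). Nrf1, a factor that binds promoters of respiratory genes, rose to 31.1 ± 6.28 FPKM in Olig1-Gnas, against 9.43 ± 1.14 FPKM in Ctrl (1.60 ± 0.17). Peo1, the helicase that unwinds mitochondrial DNA, had 23.5 ± 6.96 FPKM in Olig1-Gnas, 16.7 ± 6.81 FPKM in hGFAP-Gnas and 5.72 ± 0.801 FPKM in Ctrl (1.83 and 1.27). Gabpa, a subunit of the factor GABP, rose in hGFAP-Gnas to 20.9 ± 6.65 FPKM, against 8.68 ± 0.764 FPKM in Ctrl. Without Ctrl 1 or without Ctrl 2, 0 of these 17 genes passed in hGFAP-Gnas, and without Ctrl 3, 2 did. Of all genes, 3738 rose and 1832 fell there with every library. Without Ctrl 1, 2 and 3, 852, 681 and 1498 rose and 197, 137 and 426 fell, so the loss was not particular to this list. Under each scaling, 8 of the 17 rose and 4 fell in Olig1-Gnas. Of all 14183 genes, 4315, 4231 and 3822 rose and 3983, 4125 and 4297 fell under these scalings.

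Of 18 genes of the tricarboxylic acid cycle and pyruvate entry, 2 rose and 8 fell in Olig1-Gnas, and 1 rose and 6 fell in hGFAP-Gnas. Among all genes 36.2% rose and 23.6% fell in Olig1-Gnas, and 26.1% rose and 12.8% fell in hGFAP-Gnas. Under each scaling 15 were lower in Olig1-Gnas, against 3983, 4125 and 4297 of all 14183 genes. In hGFAP-Gnas 1 gene was higher and 0 lower without any 1 Ctrl library. Of all genes, 852, 681 and 1498 were higher and 197, 137 and 426 lower there without Ctrl 1, 2 and 3. Ogdh, Sucla2 and Idh3b, which act at consecutive steps of the cycle, fell in both: their log2 folds were -1.37, -1.18 and -1.09 in Olig1-Gnas and -0.82, -0.93 and -0.87 in hGFAP-Gnas. Idh2, the isocitrate dehydrogenase that makes NADPH, rose to 118 ± 29.3 FPKM in Olig1-Gnas and 94.2 ± 29.4 FPKM in hGFAP-Gnas, against 22.3 ± 1.26 FPKM in Ctrl (2.32 ± 0.18 and 1.95 ± 0.32). Of 10 tested genes that move nucleotides, phosphate or energy-rich phosphate, 4 rose and 5 fell in Olig1-Gnas, and 1 of each in hGFAP-Gnas, none of them without any 1 Ctrl library. Their rises in Olig1-Gnas were near the 36.2% of all genes that rose there, and in hGFAP-Gnas the single fall was near the 12.8% that fell. The loss of calls without a Ctrl library was not particular to this list, given the counts of all genes above. Ckmt1, the mitochondrial creatine kinase, had 17.0 ± 16.6 FPKM in Olig1-Gnas, 45.8 ± 45.0 FPKM in hGFAP-Gnas and 173 ± 6.46 FPKM in Ctrl. Atpif1, an inhibitor of ATP synthase, rose to 331 ± 46.0 FPKM in Olig1-Gnas, against 202 ± 40.2 FPKM in Ctrl.

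Assembly factors, Ndufaf1 to Ndufaf4 among them, numbered 30 tested genes in Olig1-Gnas, of which 4 rose and 7 fell, and 31 in hGFAP-Gnas, of which 2 rose and 0 fell, again none without any 1 Ctrl library. The falls in Olig1-Gnas were near the 23.6% of all genes that fell, and the rises were below the 36.2% that rose there and the 26.1% in hGFAP-Gnas. Lyrm7, needed for the Rieske protein, fell in Olig1-Gnas with a log2 fold of -1.04 ± 0.25, and Atpaf1, needed for the head of ATP synthase, with one of -0.85 ± 0.16. Surf1, an assembly factor of complex IV, also fell there (-0.68 ± 0.18), as did Tmem70, an assembly factor of ATP synthase (-0.72 ± 0.21). Without Ctrl 1 the falling count in Olig1-Gnas was 3, and 2692 of all 14017 genes fell. In hGFAP-Gnas Cox18 and Oxa1l, which insert proteins into the inner membrane, rose by 0.56 and 0.50. Of 16 genes that carry electrons, make ubiquinone or feed it, 3 rose and 4 fell in Olig1-Gnas, and 1 of each in hGFAP-Gnas, where both were lost without any 1 Ctrl library. The falls in Olig1-Gnas were near the 23.6% of all genes, and the rises in both were below the shares of 36.2% and 26.1%. In hGFAP-Gnas 852, 681 and 1498 of all genes rose and 197, 137 and 426 fell without Ctrl 1, 2 and 3. The losses of calls there were thus not particular to these lists. Gpd2, the glycerol phosphate dehydrogenase of the inner membrane, had 12.3 ± 3.48 FPKM in Olig1-Gnas, 15.5 ± 4.13 FPKM in hGFAP-Gnas and 24.4 ± 3.09 FPKM in Ctrl and fell in both. None of these lists had a called gene between the knockouts. The subunits encoded by mitochondrial DNA were not analysed here.

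**Figure D5:**
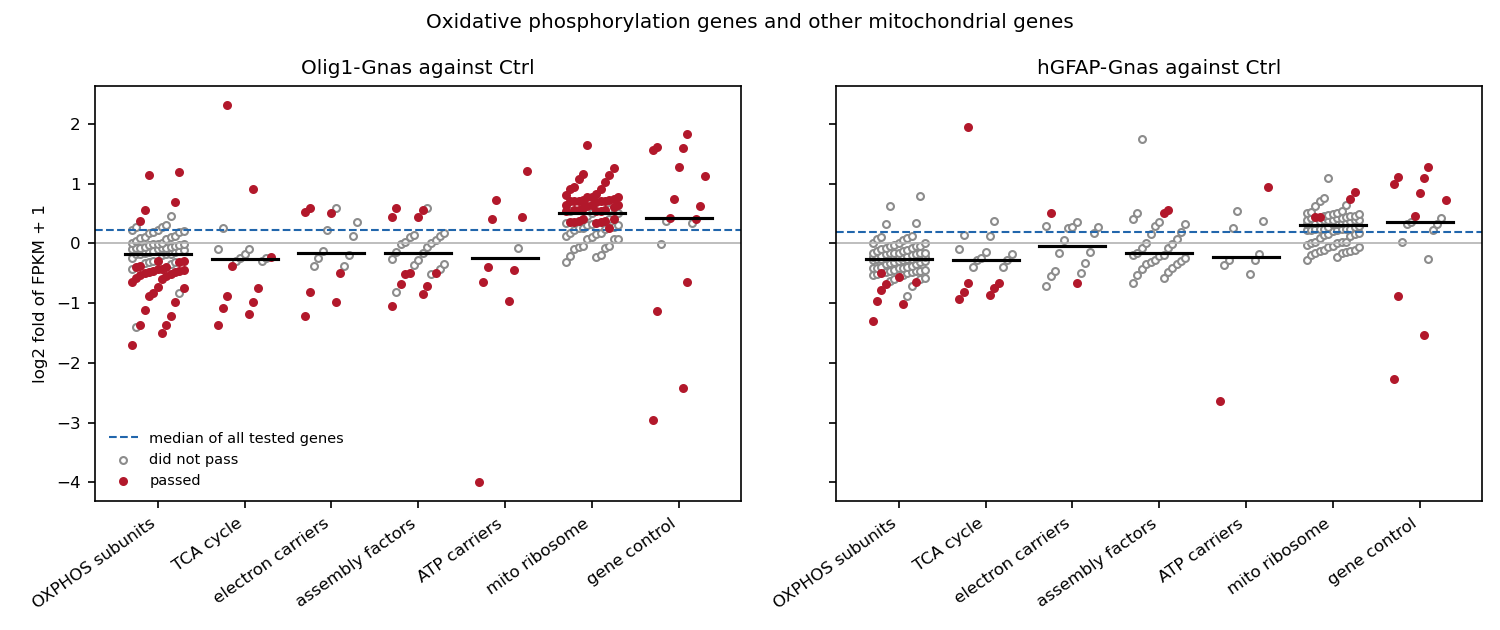
Log2 folds on the scale of log2(FPKM + 1) of oxidative phosphorylation genes and of 6 lists of related mitochondrial genes, for Olig1-Gnas against Ctrl and hGFAP-Gnas against Ctrl; each point is a gene, black bars are medians and the dashed line is the median of all tested genes (0.22 and 0.19). The mitochondrial ribosome lies at a median of 0.51 in Olig1-Gnas and 0.30 in hGFAP-Gnas, and the 88 members at -0.18 and -0.26.

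The promoter windows of the members, 250 bases before to 50 after the RefSeq start, were searched on both strands for motifs of respiratory gene factors. Of 88 members, 74 had a window. The NRF1 motif CATGCGC was in 14 of 74 (18.9%), against 4.89% of 17486 windows of protein-coding genes. The GABP motif CCGGAAG was in 16 (21.6%, against 11.9%), the YY1 motif AAGATGG in 11 (14.9%, against 6.37%) and the ERRα motif AAGGTCA in 8 (10.8%, against 4.08%). The median GC content was 57.8% in the member windows and 56.3% in all. By call in Olig1-Gnas, the NRF1 motif was in 1 of 4 windows of genes that rose, 5 of 25 that fell and 8 of 45 others, and the ERRα motif in 1, 2 and 5 of them. These shares describe letters in a window. By transcript length, members under 800 bases (53 genes) had a median fold of -0.18 in Olig1-Gnas, those of 800 to 1500 bases (28 genes) -0.14 and those over 1500 bases (7 genes) -0.43. Length here is the median over all coding transcripts that GENCODE lists for a gene, which gave Ndufs1 651, Uqcrc1 533 and Ndufb2 2413 bases. It need not be the length of the transcript expressed in this tissue, so these medians do not show how folds relate to that length.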

How the data were processed

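RNA-seq of 19 cerebellum libraries (8 Olig1-Gnas, 8 hGFAP-Gnas, 3 Ctrl), counted as mice in the series' design text, was read from tables of FPKM per gene that the authors deposited, 1 for each knockout with its own Ctrl columns. The submitters' processing notes name TopHat, Cufflinks and the mm9 build; versions and annotation are not given in the sources used here. FPKM are not counts and the depth in reads is unknown, so counting error cannot be given; relative depth came from the steps between low values. Ctrl 1 differed between the tables in 16 members, by ratios of 0.998906 to 1.00512.

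Genes reaching 1 FPKM in 3 or more libraries of a comparison were tested on log2(FPKM + 1) with limma 3.58.1 (R 4.3.3, trend and robust moderation) in a fit of the 2 groups compared, with Benjamini-Hochberg adjustment over all genes tested and calls at an adjusted p under 0.05. A log2(FPKM + 1) fold understates changes of low genes. Ratios of 9 paralog pairs used FPKM + 0.1 and two-sided exact permutation tests, adjusted over the 9 pairs of each comparison. On simulated data with 200 planted changes, 2-fold changes were recovered in 58.5% (Olig1-Gnas against Ctrl, 14183 genes), 43.9% (hGFAP-Gnas against Ctrl, 14305 genes) and 69.0% (Olig1-Gnas against hGFAP-Gnas, 14386 genes) of cases. The data held more called genes against Ctrl, 5134 higher and 3351 lower in Olig1-Gnas and 3738 and 1832 in hGFAP-Gnas. Between the knockouts they held fewer, 21 and 38. The adjusted cutoff therefore differed, stricter in the simulation against Ctrl and looser between the knockouts, and these shares do not give the recovery in the data.

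The members, roles and gene lists were chosen with earlier results of these data known. Genes named were the paralog pairs, 10 core subunits, in each comparison with Ctrl the 6 called members with the largest rise and the 6 with the largest fall, the 3 most abundant in Ctrl, those nearest the threshold, and at most 4 called genes of each list. Promoter sequences are from RefSeq, GRCm38.p6. Transcript lengths, also those of short and long transcripts, are the median over all GENCODE coding transcripts of a gene. Alternatives covered scaling, filter, pseudocount, model terms, depth and left-out libraries.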

Additional observations from a re-analysis of the deposited data

Results flagged for a closer look

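In groups of 8, a library was singled out where its gap to the nearest other library was over 0.526 of the group's range. Chance does this in about 1 in 20 groups, and 25 of 98 groups searched had such a library, 17 of them hGFAP-Gnas 2. The members' values within 1 library are not independent, so these are not separate events.

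The library hGFAP-Gnas 2 was the high one each time. Its members took 3.30% of all FPKM, and its median log2(FPKM + 1) was 7.51 over all members, 7.31 for complex I, 7.24 for complex II and 7.90 for complex III. In ATP synthase it had 162 FPKM of Atp5g1, 743 FPKM of Atp5g3 and 920 FPKM of Atp5b. In complex IV it had 1061 FPKM of Cox4i1, 314 FPKM of Cox5a, 249 FPKM of Cox7a2, 138 FPKM of Cox7b and 6.39 FPKM of Cox7b2. In the other complexes it had 151 FPKM of Ndufv1, 233 FPKM of Ndufv3, 177 FPKM of Sdhb and 158 FPKM of Uqcrfs1. Transcripts under 1000 bases stood 0.28 above the group median in this library on the log2 scale, and their part in these values was not tested.

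Olig1-Gnas 6 was high in Cox7a2l at 340 FPKM, in Ndufa4 at 1074 FPKM and in Uqcrfs1 at 152 FPKM. Olig1-Gnas 4 was high in Atp5g2 at 561 FPKM, in Ndufv1 at 115 FPKM and in Atp5b at 847 FPKM. Olig1-Gnas 2 was high in Cox8b at 5.11 FPKM and was listed at 0 for Uqcrc2.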

How the results depend on the processing

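In Olig1-Gnas against Ctrl, 5 members were higher and 31 lower. The higher count was 3 with an equal FPKM sum, 3 among the deeper libraries alone and 9 with depth as a term. Of all genes, 3822 of 14183, 3949 of 13592 and 5232 of 14183 were then higher, larger shares than among the members. The lower count was 54 under quantile normalization, 54 with an equal FPKM sum, 12 at an adjusted p under 0.01, 19 in 1 fit over all 19 libraries, 17 with Y-linked signal as a term, and 12 to 34 with 1 library left out. Of all tested genes, 4125 and 4297 of 14183 were lower under quantile normalization and an equal FPKM sum, smaller shares than among the members. At the stricter cutoff 2555 of 14183 were lower, and in the single fit 3420 of 14591. In the model that allowed for the Y-linked signal, 2965 of 14183 were lower. Each of these last counts was a larger share than among the members, so their excess of falls was absent there. Among the shallower libraries Ctrl 3 was the only Ctrl library, so counts from those alone are not given. The fold of Ndufa4 turned to -0.47 and that of Atp5e to -0.12 under quantile normalization. In hGFAP-Gnas against Ctrl, 0 members were higher and 8 lower. The higher count was 1 with a filter of 5 FPKM, 1 under quantile normalization and 1 in limma without trend or robust moderation. It was 2 in 1 fit over all 19 libraries and 3 without hGFAP-Gnas 1 and 2 together, an alternative chosen after seeing the data. Of all tested genes, 3194 of 11665, 2614 and 3690 of 14305, 3994 of 14591 and 5787 of 14111 were higher in the same order. Each was a larger share than among the members. With 1 library left out, the higher count of members was 0 to 3, against 681 to 5404 of all genes. The lower count was 22 under upper quartile scaling, 33 under quantile normalization, 22 with an equal FPKM sum, 0 at an adjusted p under 0.01, 14 in 1 fit over all 19 libraries, 0 among the deeper libraries alone, 40 without hGFAP-Gnas 1 and 2 together, and 0 to 34 with 1 library left out. Of all tested genes, 2312, 2718, 2299, 164, 1883, 0 and 3198 were lower in the same order, single left-out libraries aside. Without hGFAP-Gnas 4, 5, 6 or 8 the lower count of members was 4, 5, 4 and 5. Of all genes, 1192 of 14232, 1245 of 14271, 1208 of 14274 and 1272 of 14261 were then lower, larger shares than among the members. Between the knockouts the lower count of members was 1 with an equal FPKM sum, and 142 of 14386 genes were then lower, a similar share. The cause of these shifts was not tested.

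With the replicate block, 3 members were higher and 31 lower in Olig1-Gnas, against 5138 and 3256 of all 14183 genes. In hGFAP-Gnas 0 members passed with it, and so did 0 of all 14305 genes, so that count says nothing about the members. Same-numbered libraries correlated at -0.18 to 0.25. With only 3 Ctrl libraries, such correlations cannot decide whether the numbers pair libraries. With 3 Ctrl libraries, low values, listed zeros and an unknown depth limit what can be seen. In the simulation a 1.5-fold change was recovered in 17.3% of cases in Olig1-Gnas against Ctrl and 10.45% in hGFAP-Gnas against Ctrl. The simulation held 200 planted changes, far fewer than the genes called against Ctrl in the data, so its adjusted cutoff was stricter. Those shares thus do not give the recovery in the data.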
